A study of Mus musculus with 21 samples.

Results

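The *Zdhhc* palmitoyltransferases described here are 10 mouse genes, *Zdhhc22* and 9 relatives (*Zdhhc2*, *Zdhhc3*, *Zdhhc5*, *Zdhhc8*, *Zdhhc9*, *Zdhhc13*, *Zdhhc14*, *Zdhhc17* and *Zdhhc21*). They were taken as all probe sets annotated to those symbols, 29 of the 45101 probe sets on the array and 10 of the 18193 genes named by a single symbol. *Zdhhc22* was picked because earlier results of these same arrays showed it higher with the transgene on, so its values are given as a description, without a p-value, and nothing is read from its place against a threshold. Of the 29 probe sets, 24 lay in the upper 60% of probe sets by mean level and 5 did not, and each of the 10 genes had at least 1 that did.

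The arrays measured total RNA from the dentate gyrus, the part of the hippocampus that holds the granule cells, of mice with an inducible transgene for NgR, the Nogo-66 receptor encoded by *Rtn4r*. There were 21 arrays in 7 groups of 3, in 3 sets. Bitransgenic mice (titled pTRE/NgR in set 1) carried tTA, a transactivator that drives a TRE-linked transgene unless doxycycline is given, and monotransgenic mice (titled NgR in set 1) lacked it. By its title the study asked what overexpression of NgR changes in the developing and mature forebrain. In set 1 the removed group was bitransgenic on water, with doxycycline taken away so that NgR was induced. The diet group of set 1 was bitransgenic with doxycycline kept in the diet so that the transgene stayed off, and the monotransgenic group of set 1 was on water with doxycycline taken away. In experiment 2 the bitransgenic mice were on water and had never met doxycycline, and the monotransgenic mice were on water. In set 3 the labels give only bitransgenic and monotransgenic, with no treatment; 2 number prefixes in the titles, of unstated meaning, each occur in both groups. The labels name neither the promoter driving tTA nor the strain, sex, age or any pooling, and nothing in them says that replicates came from separate animals, and p-values here therefore reflect no more than the spread among the arrays. Bitransgenic and monotransgenic mice differ in tTA as well as in NgR. In experiment 2, in set 3 and in removed against monotransgenic arrays of set 1, tTA and NgR cannot be told apart. In set 1 the removed and diet groups differ in doxycycline as well as in NgR. The diet and monotransgenic groups differ in doxycycline as well as in tTA. In those comparisons doxycycline cannot be told apart from NgR or tTA.

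Palmitoylation attaches a fatty acid to cysteines of a protein through a thioester bond, which anchors the protein at membranes and can be taken off again by thioesterases. The transfer is made by multispanning membrane enzymes that share a cysteine-rich domain with an aspartate-histidine-histidine-cysteine motif, from which the family has its name. In neurons these enzymes act on synaptic scaffolds, receptors, ion channels, vesicle proteins and small GTPases. The product of *Zdhhc22*, with that of *Zdhhc23*, palmitoylates the pore-forming subunit of the BK potassium channel.

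The annotated starts of *Zdhhc22* and of the relatives with the fewest and nearly the most CpG (*Zdhhc9* and *Zdhhc5*) are shown because the windows differ widely in CpG count. The windows are the 250 bases upstream of the start (RefSeq, GRCm38.p6, all on the minus strand), at chr12:86990831-86991080 for *Zdhhc22*, chr2:84715165-84715414 for *Zdhhc5* and chrX:48208703-48208952 for *Zdhhc9*. Capitals mark CpG.
Zdhhc22: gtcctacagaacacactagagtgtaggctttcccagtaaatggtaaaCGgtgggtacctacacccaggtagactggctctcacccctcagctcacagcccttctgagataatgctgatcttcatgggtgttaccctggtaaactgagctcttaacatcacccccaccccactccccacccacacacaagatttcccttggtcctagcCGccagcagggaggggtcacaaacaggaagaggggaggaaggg
Zdhhc5: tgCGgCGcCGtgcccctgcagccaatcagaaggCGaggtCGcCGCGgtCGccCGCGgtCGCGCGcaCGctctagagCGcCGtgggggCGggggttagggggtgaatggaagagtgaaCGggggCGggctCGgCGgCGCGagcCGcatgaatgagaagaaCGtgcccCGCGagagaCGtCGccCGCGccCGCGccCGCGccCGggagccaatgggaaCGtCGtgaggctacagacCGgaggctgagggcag
Zdhhc9: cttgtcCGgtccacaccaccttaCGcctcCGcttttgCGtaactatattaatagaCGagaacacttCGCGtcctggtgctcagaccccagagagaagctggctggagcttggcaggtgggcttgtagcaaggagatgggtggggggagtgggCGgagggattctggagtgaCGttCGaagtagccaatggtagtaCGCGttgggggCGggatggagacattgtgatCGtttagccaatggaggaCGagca

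The *Zdhhc22* window held 2 CpG at 54.4% GC, and 29.0% of 32851 upstream windows in the table had as few or fewer. The windows of *Zdhhc9* and *Zdhhc5* held 15 and 39 CpG, against a median of 6 over all windows. Of the 10 members 7 had a window in the table, and the relatives' windows ran from 15 CpG in *Zdhhc9* to 42 in *Zdhhc17*. A second annotated start of *Zdhhc22*, downstream of the first, had 8 CpG and 3 GC boxes. Neither the GC box GGGCGG nor the TATA box TATAAA, searched on both strands, was found in the first *Zdhhc22* window; 32.7% of all windows hold GGGCGG and 12.4% hold TATAAA, and 92.1% hold a CpG. These are counts of letters in a window and say nothing of which factors bind there.

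Values are the authors' linear intensities. Differences are on log2(intensity + 16) after quantile normalization, from 1 limma fit over 12499 genes, each represented by its brightest probe set, with Benjamini-Hochberg adjustment and a threshold of 0.05. On this scale the changes of dim probe sets are understated. Levels of different probe sets are not set against each other.

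*Rtn4r* was measured first, as a check of the labels. Its intensity was 254 to 1470 in the removed arrays, 73.1 to 111 in the diet arrays and 63.8 to 98.4 in the monotransgenic arrays of set 1, and 365 to 755 in the bitransgenic against 85.9 to 185 in the monotransgenic arrays of the other sets. The 10 granule cell markers were all measured, at a summed intensity of 16000 to 25300 over the arrays. None was called in any of the 6 comparisons, in which 0% to 0.096% of all genes were. In experiment 2 the log2 ratio of 3' to 5' beta-actin signal, a sign of RNA quality, was 4.84 to 6.45, against 4.17 to 5.12 in the other sets. The same ratio for *Gapdh* did not set experiment 2 apart, at 4.11 to 4.74 against 3.95 to 4.8. Both log2 ratios were 3.95 or more on all 21 arrays, so 3' signal was far above 5' signal throughout. *Ogn*, a gene of meningeal fibroblasts, separated the monotransgenic arrays among themselves: it read 525 to 824 on 6 of them and 79.6, 153 and 41.2 on experiment 2 replicates 2 and 1 and set 3 replicate 2. The arrays carrying tTA read 8.54 to 143.

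*Zdhhc22* was higher with the transgene on in each set, by 2.26-fold over the 3 sets. In set 1 it read 467, 377 and 571 in the removed arrays, 301, 262 and 285 in the diet arrays, and 144, 224 and 109 in the monotransgenic arrays. The 3 groups did not overlap, and the diet arrays lay between the other groups. After normalization, 7.99% of genes were apart upward in removed against diet arrays. The shares were 10.8% in removed and 7.3% in diet against monotransgenic arrays. In experiment 2 the intensities were 365, 333 and 425 in the bitransgenic arrays and 258, 354 and 89.2 in the monotransgenic arrays. Here the deposited values overlapped, since monotransgenic replicate 2 stood above bitransgenic replicate 2. After normalization the groups came narrowly apart, with those 2 arrays at 8.54 and 8.55 on the log2 scale. In this direction 5.12% of genes were apart. In set 3 *Zdhhc22* had 423, 360 and 448 in the bitransgenic arrays and 135, 272 and 151 in the monotransgenic arrays. These did not overlap, and 8.78% of genes were apart in this direction.

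**Figure D1:**
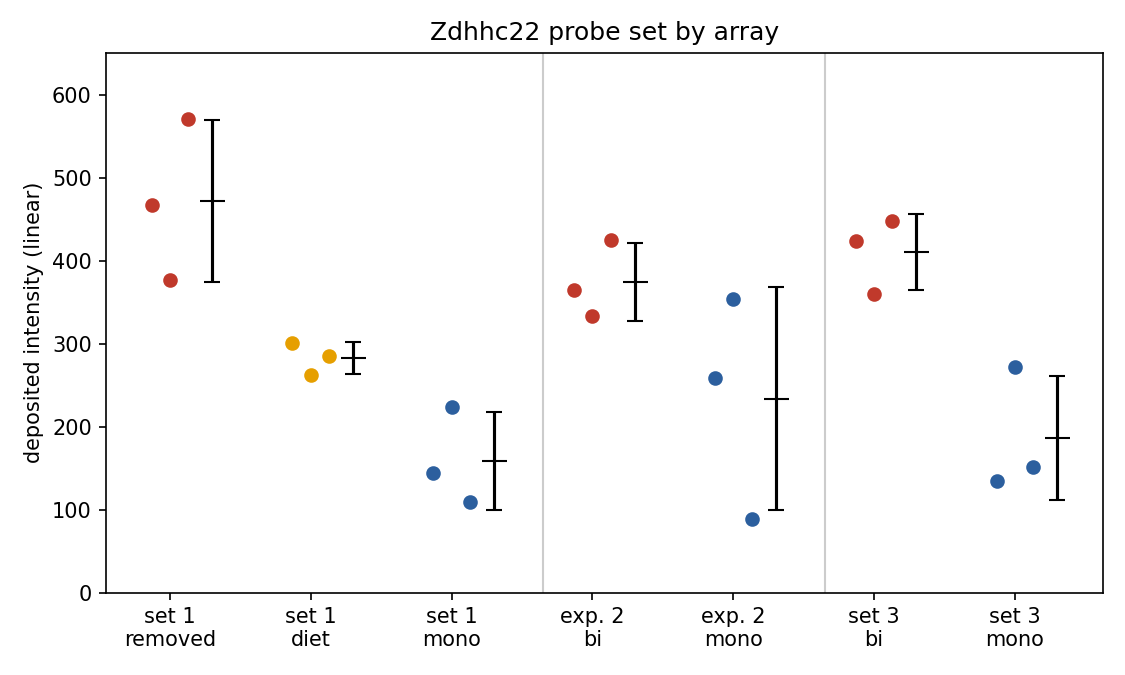
Deposited intensity of the *Zdhhc22* probe set (linear, vertical axis) on each of the 21 arrays by group, with bars for the mean and SD of 3 arrays; red is bitransgenic with the transgene on, orange bitransgenic on doxycycline diet and blue monotransgenic. The 9 arrays with the transgene on sit between 333 and 571, and the 9 monotransgenic arrays between 89.2 and 354.

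Over the sets, the 9 arrays with the transgene on had a median of 423 and the 9 monotransgenic arrays a median of 151. Of the 9, 8 stood above every monotransgenic array. Ordered by mean intensity from the lowest, the groups were set 1 monotransgenic at 159 ± 59.1, set 3 monotransgenic at 186 ± 74.8, experiment 2 monotransgenic at 234 ± 134, set 1 diet at 282 ± 19.6, experiment 2 bitransgenic at 374 ± 46.6, set 3 bitransgenic at 410 ± 45.2 and set 1 removed at 472 ± 97 (SD, n = 3 each). In that order the only neighbours whose arrays did not overlap were the diet group and the experiment 2 bitransgenic group. The 3 bitransgenic groups with the transgene on overlapped one another, as did the 3 monotransgenic groups.

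As log2 differences, *Zdhhc22* was 0.71 ± 0.35 (SE) in removed against diet arrays, 1.52 ± 0.35 in removed against monotransgenic arrays and 0.82 ± 0.35 in diet against monotransgenic arrays. The diet arrays carried tTA without raised *Rtn4r*, and were the only arrays of set 1 on doxycycline. Their *Zdhhc22* lay above all 3 monotransgenic arrays of the set, as 7.3% of genes did. The difference was 0.86 ± 0.35 in experiment 2, or 0.28 without monotransgenic replicate 3, the array of lowest *Zdhhc22*, and 1.16 ± 0.35 in set 3. Averaged over the 3 sets it was 1.18 ± 0.20, with a 95% interval of 0.76 to 1.60. The 3 comparisons within set 1 share arrays and are not independent. *Zdhhc22* was 1 of 9 genes past the threshold over the 3 sets, 0.072% of those tested. The gene was chosen from that contrast, so its place there is no support. Leaving out 1 array at a time gave differences of 0.99 to 1.30. It was not past the threshold in any of the other 5 comparisons, in which 0.032% (removed against diet), 0.072% (removed against monotransgenic), 0.024% (diet against monotransgenic), 0.096% (experiment 2) and 0% (set 3) of genes were. In set 3, where none was, 524 genes had an unadjusted p under 0.05.

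In the monotransgenic groups of experiment 2 and set 3, *Zdhhc22* was higher where *Ogn* was lower. In set 1, where *Ogn* was high on all 3 monotransgenic arrays, that order did not hold: *Ogn* of 556, 728 and 636 went with *Zdhhc22* of 144, 224 and 109. The 3 monotransgenic arrays of low *Ogn* had the highest *Zdhhc22* of their groups, at 354 and 258 in experiment 2 and 272 in set 3. The remaining monotransgenic arrays read 89.2 in experiment 2 and 135 and 151 in set 3. The diet arrays, which also had low *Ogn* (8.54 to 26.8), read 262 to 301. With the log2 level of *Ogn* as a covariate, a choice made after these values were seen, the *Zdhhc22* difference over the 3 sets was 0.35 ± 0.27, and 0.21 ± 0.44 in removed against monotransgenic arrays. In diet against monotransgenic arrays its sign turned, to -0.57 ± 0.45. Removed against diet, 2 groups of like *Ogn*, gave 0.77 ± 0.27 with the covariate. Leaving out the 3 monotransgenic arrays of low *Ogn* gave 1.66 ± 0.14 over the 3 sets, with experiment 2 then resting on 1 monotransgenic array. In set 1 *Ogn* was 8.54 to 26.8 on every bitransgenic array and 556 to 728 on every monotransgenic array. There the covariate cannot be told apart from genotype. Within groups *Ogn* varied most among the monotransgenic arrays of the other sets, so the slope applied to set 1 comes mainly from those. What part *Ogn*-expressing tissue has in the *Zdhhc22* difference was not tested, and these fits cannot decide it. *Ogn* itself was lower over the 3 sets, at -2.61 ± 0.42 on the log2 scale (adjusted p = 0.0164).

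Of the 6 genes listed for meninges and fibroblasts, 4 were tested. Their summed intensity was 57.48 to 94.08 in removed, 81.69 to 108.8 in diet and 702.5 to 861.9 in monotransgenic arrays of set 1. It was 83.42 to 136.7 in bitransgenic and 149.5 to 585.4 in monotransgenic arrays of experiment 2, and 76.91 to 199.6 and 83.05 to 949.6 in those of set 3. *Ogn* and *Lum* carried the difference in set 1, where both were called lower in removed than in monotransgenic arrays, while *Dcn* and *Col1a2* over the 3 sets were at -0.06 ± 0.15 (adjusted p = 0.909) and 0.09 ± 0.15 (adjusted p = 0.849). Among granule cell genes *C1ql2*, for a secreted synaptic protein, had 210 to 297 in removed, 568 to 784 in diet and 887 to 1110 in monotransgenic arrays of set 1, 156 to 257 in bitransgenic and 136, 442 and 1230 in monotransgenic arrays of experiment 2, and 201 to 353 and 135 to 1130 in those of set 3. On the 3 monotransgenic arrays of low *Ogn* it was 136, 442 and 135, below the other 6 at 886 to 1230. Of the granule cell list, 8 of 10 genes were lower over the 3 sets (median -0.21), against a median of 0.01 over all genes tested. Some lists for other cell types lay lower too: 8 of 8 oligodendrocyte genes (median -0.19), 5 of 5 genes of inhibitory neurons (median -0.15) and 4 of 5 astrocyte genes (median -0.13). The medians were -0.08 for CA3, CA2 and mossy cells, -0.05 for CA1 pyramidal cells, -0.02 for microglia and 0.04 for choroid plexus. No gene of the granule cell, oligodendrocyte, inhibitory neuron and astrocyte lists was called over the 3 sets, when 0.072% of all genes were. In tissue RNA, fewer cells of a type and less RNA per cell cannot be told apart.

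**Figure D2:**
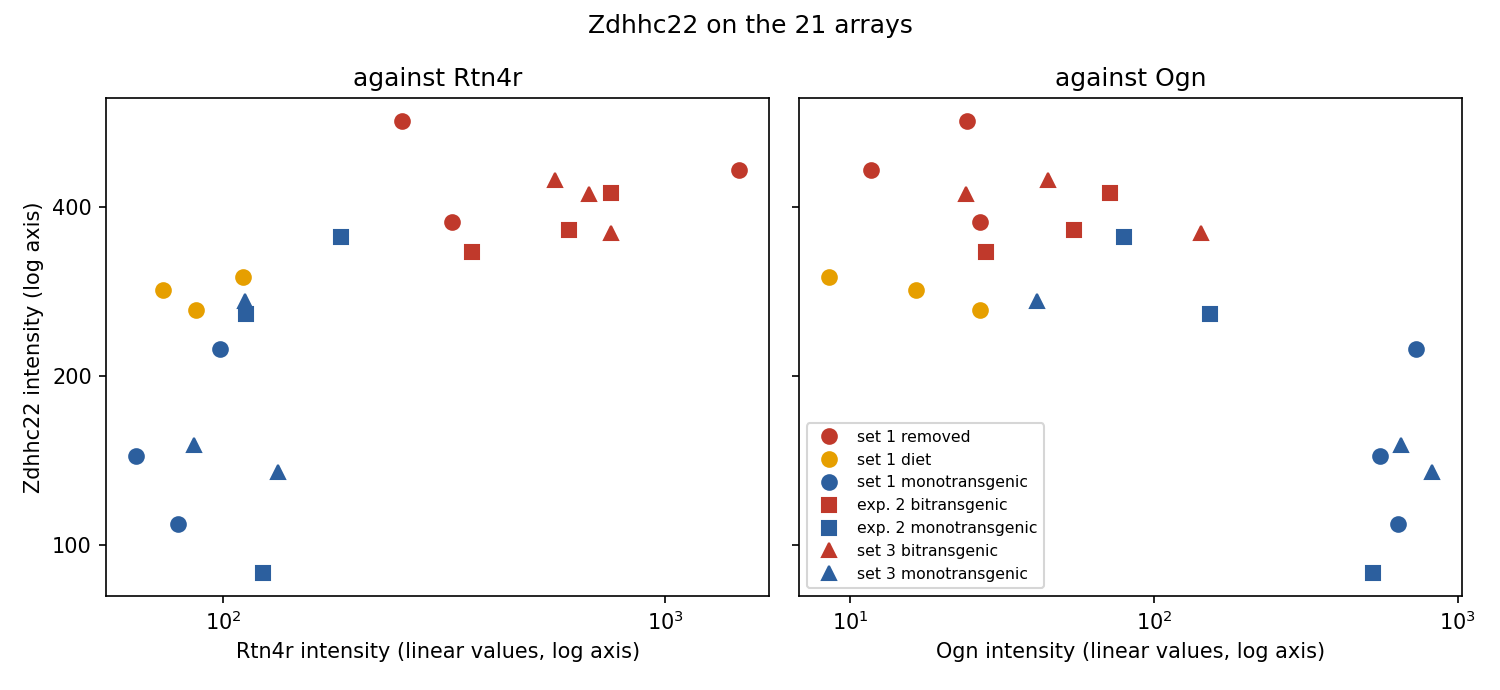
Deposited intensity of *Zdhhc22* (vertical, log axis) against that of *Rtn4r* (left) and *Ogn* (right, both log axes) on the 21 arrays, with shapes for the sets and colours for bitransgenic with transgene on (red), on diet (orange) and monotransgenic (blue). The diet arrays have *Rtn4r* of 73.1 to 111 with *Zdhhc22* of 262 to 301, and the 3 monotransgenic arrays with *Ogn* of 41.2 to 153 have *Zdhhc22* of 258 to 354.

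Among the removed arrays, the order of *Zdhhc22* was not that of *Rtn4r*. The removed array with the highest *Rtn4r*, 1470, had a *Zdhhc22* of 467, and those with 329 and 254 had 377 and 571. Over all 21 arrays, centred within sets, the Pearson correlation of *Zdhhc22* with *Rtn4r* was 0.735, at rank 92 of the genes tested. The genes most like *Zdhhc22* by this measure were *Osbpl10* (r = 0.915), an oxysterol-binding family member, *Dkk3* (r = 0.901), a secreted protein of the Dickkopf family, *Kndc1* (r = 0.894), *Klhdc8a* (r = 0.893) and *Amph* (r = 0.889), which encodes amphiphysin of endocytosis. The most opposed were *Ntng1* (r = -0.915), for the axonal adhesion protein netrin-G1, *Mcm6* (r = -0.878), a subunit of the replicative helicase, and *C1ql3* (r = -0.877). These coefficients describe 21 arrays that share the groups of the design and the *Ogn* difference. Of these 8 genes none was called over the 3 sets, when 0.072% of all genes were. *Dkk3* stood at 1.41 ± 0.29, *Amph* at 0.38 ± 0.08 and *Ntng1* at -0.81 ± 0.17, each with adjusted p = 0.0622. The 9 relatives correlated with *Zdhhc22* at -0.42 (*Zdhhc14*) to 0.23 (*Zdhhc5*).

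None of the 9 relatives passed the threshold in any of the 6 comparisons, where 0% to 0.096% of all genes did. Nor did any member in the 3 comparisons of the sets with each other, where 0% of all genes did. Over the 3 sets the log2 differences of the relatives ran from -0.26 in *Zdhhc14* to 0.19 in *Zdhhc5*, with a median of -0.03. *Zdhhc22* was at 1.18, and the median over all 12499 genes was 0.01. By comparison the relatives ran from -0.41 to 0.12 in removed against diet, -0.48 to 0.24 in removed against monotransgenic, -0.25 to 0.21 in diet against monotransgenic, -0.41 to 0.36 in experiment 2 and -0.10 to 0.25 in set 3. *Zdhhc22*, which was chosen for its rise, lay above the highest of these 9 relatives each time. *Zdhhc23*, which is not among the 9, was at 0.714 in removed against diet, where *Zdhhc22* was at 0.706. In the other comparisons *Zdhhc23* lay below *Zdhhc22*. Of the relatives, none had groups that did not overlap in experiment 2, where 5.12% of genes were apart upward and 3.57% downward. In set 3 none was apart downward, as 4.72% of genes were, and in diet against monotransgenic arrays 1 was, *Zdhhc3* at -0.11 ± 0.16 (adjusted p = 1), as 7.58% were. At an unadjusted p under 0.05, 1 relative counted over the 3 sets, *Zdhhc14*, when 1471 genes, 11.8% of those tested, did.

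**Figure D3:**
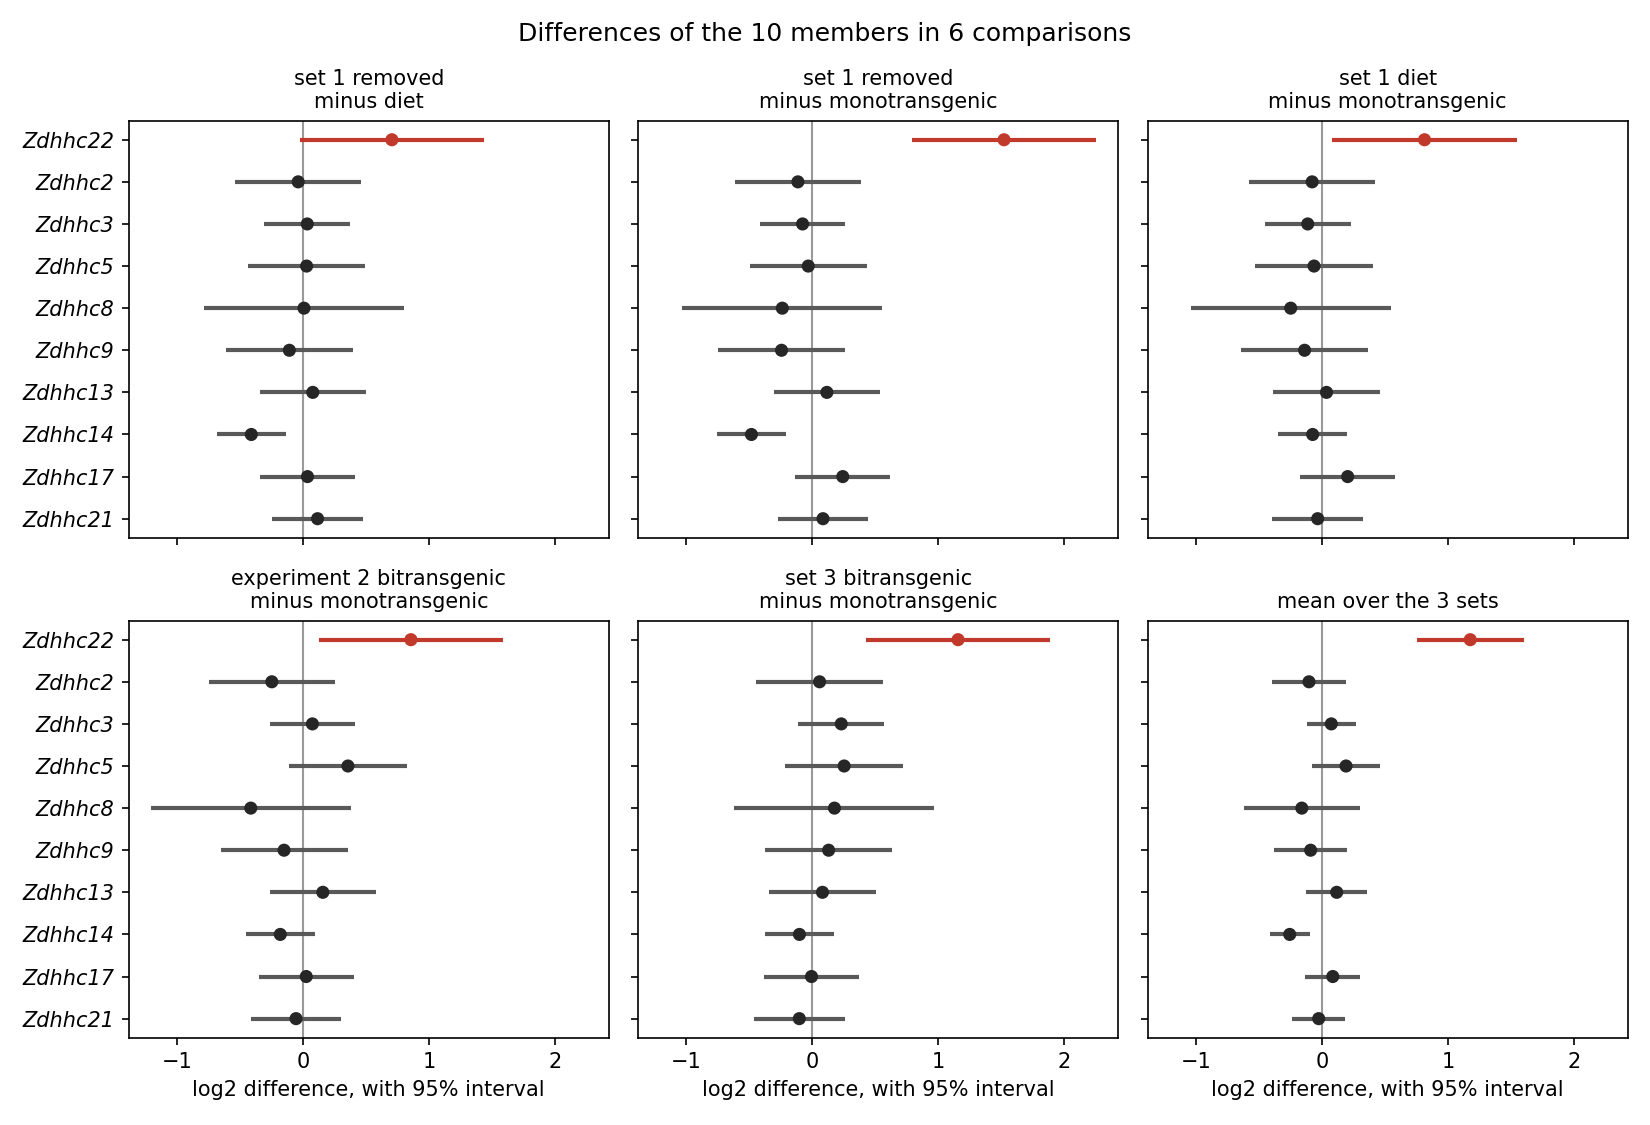
Log2 difference (point) and 95% interval (line, horizontal axis) of each of the 10 members in the 6 comparisons, from the limma fit over all genes; *Zdhhc22* is red. Its difference lies between 0.71 and 1.52, and those of the 9 relatives between -0.48 and 0.36.

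Of the enzymes known for synaptic scaffolds and receptors, *Zdhhc2* palmitoylates the postsynaptic scaffold PSD-95. Its intensity averaged 98.8 ± 3.97 in removed, 109 ± 37.1 in diet and 113 ± 16.7 in monotransgenic arrays of set 1 (SD, n = 3 each, as for the means that follow). The bitransgenic and monotransgenic means were 85.4 ± 31.9 and 110 ± 11.6 in experiment 2 and 107 ± 32.3 and 102 ± 19.5 in set 3. The groups overlapped in all comparisons, and the difference over the 3 sets was -0.10 ± 0.14 (adjusted p = 0.811). Its other probe set that passed the filter gave 0.11 over the sets, the opposite sign. *Zdhhc3*, a Golgi enzyme known for the gamma2 subunit of GABA-A receptors, averaged 165 ± 17.9 in removed, 166 ± 12 in diet and 180 ± 6.95 in monotransgenic arrays of set 1. Experiment 2 had means of 176 ± 40.7 in bitransgenic and 176 ± 31.9 in monotransgenic arrays. In set 3 it read 224, 196 and 203 in bitransgenic and 153, 183 and 195 in monotransgenic arrays, which just failed to overlap. That difference was 0.23 ± 0.16 (adjusted p = 1), and 8.78% of genes had set 3 groups that were apart in this direction. Over the 3 sets *Zdhhc3* was at 0.08 ± 0.09 (adjusted p = 0.794), and its 3 further probe sets gave 0.06 to 0.17.

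*Zdhhc5*, a plasma membrane enzyme whose substrates include GRIP1 and delta-catenin, averaged 81.6 ± 17.3 in removed, 83 ± 16.4 in diet and 88.6 ± 30 in monotransgenic arrays of set 1. Its means were 76.7 ± 17.3 in bitransgenic and 66.3 ± 8.35 in monotransgenic arrays of experiment 2, and 72.8 ± 7.42 and 61.3 ± 16.1 in those of set 3. It had the highest difference of the relatives in both sets, 0.36 ± 0.22 (adjusted p = 0.452) and 0.25 ± 0.22 (adjusted p = 1), with overlapping groups each time. Without experiment 2 bitransgenic replicate 2, the array of highest actin ratio, its difference there was 0.18. *Zdhhc8*, a close relative of *Zdhhc5* that is deleted in the human 22q11 microdeletion, was the most variable of the 9, with a within-group SD of 0.53 on the log2 scale. Its means were 99.9 ± 29.5 in removed, 100 ± 18.8 in diet and 122 ± 17.3 in monotransgenic arrays of set 1 and 153 ± 22 in bitransgenic against 136 ± 34.1 in monotransgenic arrays of set 3. In experiment 2 it read 151, 23.7 and 112 in bitransgenic and 60.4, 165 and 165 in monotransgenic arrays. The low arrays, bitransgenic replicate 2 and monotransgenic replicate 1, are those with the highest actin ratios, 6.45 and 5.97. The difference of -0.41 ± 0.38 (adjusted p = 0.617) became -0.20 ± 0.24 without both arrays and 0.20 ± 0.30 without bitransgenic replicate 2 alone. The second probe set of *Zdhhc8* had the opposite sign in experiment 2, at 0.40. Bitransgenic replicate 2 was also the lowest experiment 2 array of *Zdhhc2* and *Zdhhc9* and the highest of *Zdhhc3*, *Zdhhc5* and *Zdhhc13*. Without it the experiment 2 differences were 0.01 in *Zdhhc2*, -0.12 in *Zdhhc3*, 0.20 in *Zdhhc9* and -0.03 in *Zdhhc13*. With all arrays they were -0.25, 0.08, -0.15 and 0.16.

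Of the members with ankyrin repeats, *Zdhhc17* encodes HIP14, which binds huntingtin and palmitoylates SNAP25 and cysteine string protein. It read 981, 1040 and 1080 in removed, 869, 1080 and 1040 in diet and 851, 877 and 852 in monotransgenic arrays of set 1. After normalization both bitransgenic groups lay above the monotransgenic one without overlap, by 0.24 ± 0.18 (adjusted p = 0.856) and 0.21 ± 0.18 (adjusted p = 1), when 10.8% and 7.3% of genes were apart in that direction. In the other sets it was at 0.03 ± 0.18 and -0.01 ± 0.18. In experiment 2 it read 796, 1800 and 963 in bitransgenic and 1100, 862 and 1150 in monotransgenic arrays, and bitransgenic replicate 2 again stood apart, here on the high side. Another probe set of *Zdhhc17*, 1458084_at, gave -0.20, -0.24 and -0.21 in the 3 sets, of opposite sign in set 1 and experiment 2, and the third, 1455986_at, gave 0.17, -0.01 and -0.13. No reading was called. *Zdhhc13*, for the related HIP14L, averaged 162 ± 16.2 in removed, 158 ± 19.5 in diet and 152 ± 5.63 in monotransgenic arrays of set 1. In bitransgenic and monotransgenic arrays it averaged 152 ± 42.1 and 142 ± 17.2 in experiment 2 and 135 ± 20.3 and 129 ± 24.3 in set 3. It was slightly higher in all 6 comparisons, by 0.04 to 0.16, with overlapping groups throughout and adjusted p = 0.733 over the 3 sets.

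Of the enzymes known for signalling proteins, *Zdhhc9*, an X-linked gene whose product works with GOLGA7 on Ras proteins, averaged 59.1 ± 13.2 in removed, 68.8 ± 17.1 in diet and 76.3 ± 15.6 in monotransgenic arrays of set 1. Its bitransgenic and monotransgenic means were 87.3 ± 40.5 and 102 ± 19.9 in experiment 2 and 86.6 ± 11.5 and 79.5 ± 4.53 in set 3. The difference over the 3 sets was -0.09 ± 0.14 (adjusted p = 0.837), and groups overlapped in each set. The other *Zdhhc9* probe set past the filter gave -0.05 over the sets. In set 3 it was at -0.14, when the brightest was at 0.13. *Zdhhc21*, known in mice for hair follicles and for endothelial nitric oxide synthase, averaged 279 ± 4.01 in removed, 262 ± 6.01 in diet and 269 ± 48.2 in monotransgenic arrays of set 1. Removed and diet arrays did not overlap, at 0.12 ± 0.17 (adjusted p = 0.999), when 7.99% of genes were apart in that direction. Its bitransgenic and monotransgenic means were 332 ± 37.8 and 357 ± 89.7 in experiment 2 and 319 ± 47.3 and 341 ± 16.5 in set 3. Over the 3 sets *Zdhhc21* was at -0.03 ± 0.10 (adjusted p = 0.944), with -0.06 in experiment 2 and -0.10 in set 3. Its other probe set past the filter, 1435104_at, had the opposite sign in each, at 0.14, 0.12 and 0.13.

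**Figure D4:**
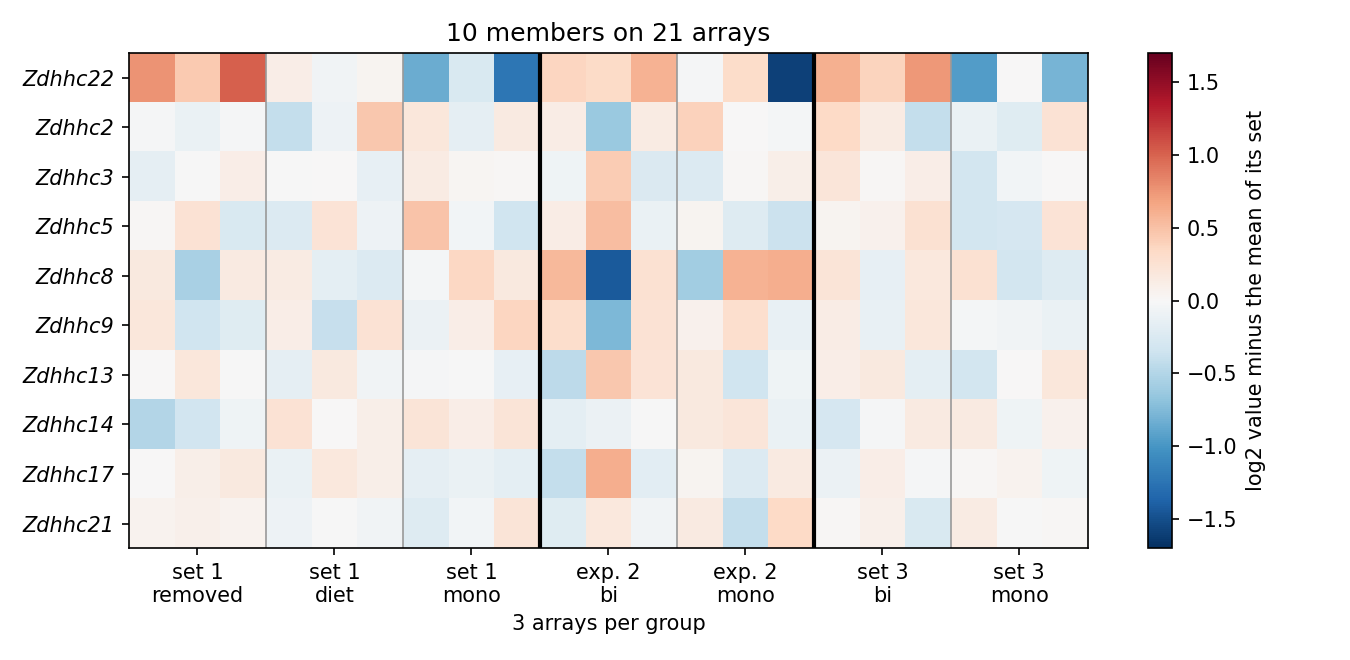
Normalized log2 value of the probe set used for each of the 10 members on the 21 arrays, minus that gene's mean over its set (colour; red above, blue below), with 3 arrays per group in order of replicate. The *Zdhhc22* row spans -1.59 to 1.02, and experiment 2 bitransgenic replicate 2 is the lowest array of *Zdhhc8* (-1.42) and the highest of *Zdhhc17* (0.62).

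*Zdhhc14*, whose product is known for palmitoylating Kv1 potassium channels and PSD-93, had the lowest p of the relatives. Its brightest probe set read 1140, 1280 and 1530 in removed, 1840, 1570 and 1680 in diet and 1870, 1750 and 1800 in monotransgenic arrays of set 1. All 3 removed arrays lay below the others, and the diet arrays overlapped the monotransgenic ones. The removed group was at -0.41 ± 0.13 against diet (adjusted p = 0.583) and -0.48 ± 0.13 against monotransgenic arrays (adjusted p = 0.2), when 8.25% and 11.4% of genes were apart in that direction. It read 1280, 1450 and 1510 in bitransgenic and 1650, 1610 and 1290 in monotransgenic arrays of experiment 2, and 1160, 1390 and 1580 in bitransgenic and 1540, 1330 and 1450 in monotransgenic arrays of set 3. Those groups overlapped, at -0.18 ± 0.13 (adjusted p = 0.52) and -0.10 ± 0.13 (adjusted p = 1), and over the 3 sets the difference was -0.26 ± 0.08 (adjusted p = 0.153). With array weights it passed the threshold in removed against monotransgenic arrays (-0.47, adjusted p = 0.0315) and over the 3 sets (-0.22, adjusted p = 0.0437), and in set 1 fitted alone too (-0.48, adjusted p = 0.0301). Those settings called 2.03%, 11% and 2.64% of all genes, against 0.072% in the same comparisons otherwise.

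The 6 probe sets of *Zdhhc14* did not all read alike. The 3 brightest correlated with each other at r = 0.98 over the 21 arrays, after centring within sets, and gave -0.48 to -0.51 in removed against monotransgenic arrays. Their suffix marks probe sets in which some probes also match other transcripts, and whether these 3 share probes was not tested. The fourth, 1438151_x_at, correlated with them at 0.12 to 0.18 and gave -0.03. The probe set 1423668_at, with no such suffix, had 115 ± 18.7 in removed, 129 ± 18 in diet and 163 ± 10.1 in monotransgenic arrays, at -0.40 ± 0.16 for removed and -0.31 ± 0.16 for diet against monotransgenic arrays. By this reading it was the diet arrays, too, that lay below the monotransgenic ones without overlap. Of all genes, 7.58% were apart in this direction for diet and 11.4% for removed arrays. The dimmest, 1437616_x_at, gave -0.44 ± 0.20 in set 1 and 0.42 ± 0.20 in set 3, with opposite signs. None of the 6 was called in any comparison, and no other probe set of the relatives was. Adjusted over 27022 probe sets, 0.0703% were called over the 3 sets, the *Zdhhc22* probe set among them. In the other comparisons 0.0185% (removed against diet), 0.0333% (removed against monotransgenic), 0.0037% (diet against monotransgenic), 0.311% (experiment 2) and 0% (set 3) of probe sets were called, and none of the 24.

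**Figure D5:**
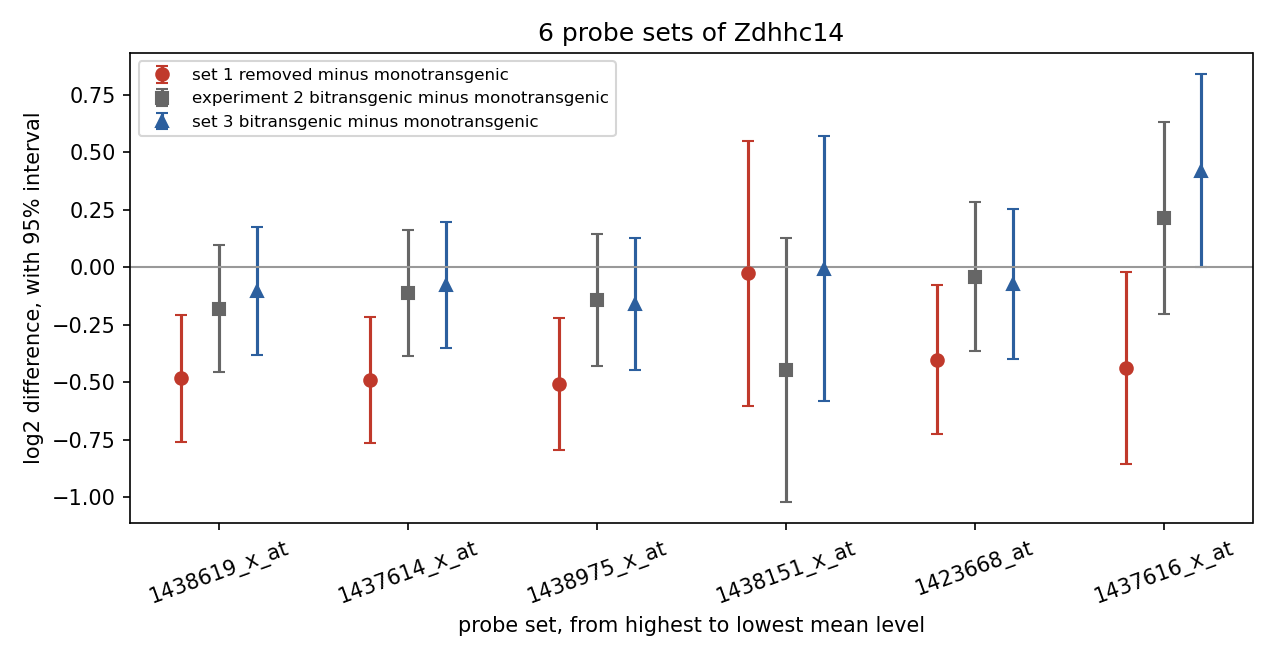
Log2 difference and 95% interval (vertical axis) of the 6 *Zdhhc14* probe sets, ordered by mean level, between arrays with the transgene on and monotransgenic arrays in set 1 (red), experiment 2 (grey) and set 3 (blue). In set 1 5 of the 6 lie between -0.40 and -0.51 and 1438151_x_at at -0.03.

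Probe sets of one gene moved together weakly in general. Of the 7 members with more than 1 probe set past the filter, the correlation between them, centred within sets, was -0.44 in *Zdhhc9*, 0.02 in *Zdhhc2*, 0.22 in *Zdhhc8*, 0.27 in *Zdhhc21*, -0.30 to -0.28 in *Zdhhc17* and -0.24 to 0.47 in *Zdhhc3*. In *Zdhhc14* it ran from -0.32 to 0.98, with a median of 0.21. *Zdhhc22*, *Zdhhc5* and *Zdhhc13* had 1 such probe set each, so *Zdhhc22* rests on a single reading, 1459723_at.

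Of 14 further *Zdhhc* genes, 10 were tested and none was called in any comparison, where 0% to 0.096% of all genes were. The nearest was *Zdhhc23*, which shares the BK channel as a substrate with *Zdhhc22*. It read 861, 696 and 674 in removed, 384, 439 and 508 in diet and 291, 331 and 470 in monotransgenic arrays of set 1. The removed arrays stood above both other groups, by 0.71 ± 0.22 against diet (adjusted p = 0.478) and 1.00 ± 0.22 against monotransgenic arrays (adjusted p = 0.0965). In that direction 7.99% and 10.8% of genes were apart. It read 610, 850 and 708 in bitransgenic and 512, 665 and 402 in monotransgenic arrays of experiment 2, and 635, 538 and 503 in bitransgenic and 331, 586 and 443 in monotransgenic arrays of set 3. Those groups overlapped, and over the 3 sets *Zdhhc23* was at 0.58 ± 0.13 with adjusted p = 0.0622. On the 3 monotransgenic arrays of low *Ogn* it read 512, 665 and 586, above the other 6 at 291 to 470. *Zdhhc20* and *Zdhhc4* followed, at 0.17 ± 0.13 (adjusted p = 0.641) and -0.16 ± 0.13 (adjusted p = 0.655). The median of the 10 over the 3 sets was 0.02.

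Genes for the partners of these enzymes and for the enzymes that reverse the reaction were not called either. In the 6 comparisons 0% to 0.096% of all genes were, so lists this short would seldom hold a call. All 12 genes listed as accessory proteins or depalmitoylases were tested and 0 were called in each of the 6 comparisons, with a median of 0.01 over the 3 sets. The lowest p values there were those of *Abhd17c*, a depalmitoylase of the ABHD17 family, at -0.26 ± 0.10 (adjusted p = 0.284), *Ppt1*, the lysosomal thioesterase, at -0.18 ± 0.08 (adjusted p = 0.402), and *Lypla2*, an acyl-protein thioesterase, at 0.18 ± 0.10 (adjusted p = 0.482). Of 29 genes for palmitoylated neuronal and signalling proteins, 26 were tested and 0 called, with 11 higher and 15 lower over the 3 sets and a median of -0.03. *Flot2*, for a membrane scaffold, was at -0.44 ± 0.14 (adjusted p = 0.187), *Stmn2*, for a microtubule regulator of growth cones, at 0.48 ± 0.16 (adjusted p = 0.209), and the adhesion molecule *Ncam1* at -0.26 ± 0.09 (adjusted p = 0.231). *Kcnma1*, for the BK channel subunit, was at 0.05 ± 0.10 (adjusted p = 0.86).

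*Zdhhc22* lies on chromosome 12, and its neighbours there were compared with it. The 5 measured genes on either side gave 0 calls in each of the 6 comparisons, where 0% to 0.096% of all genes were called. Over the 3 sets the adjacent genes were at 0.02 ± 0.06 for *Cipc*, a circadian regulator (adjusted p = 0.909), and 0.09 ± 0.17 for *Tmem63c* (adjusted p = 0.865). The lowest p values of the 10 were those of *Gpatch2l* at 0.14 ± 0.08 (adjusted p = 0.543), *Tmed8* at 0.11 ± 0.08 (adjusted p = 0.632) and *Irf2bpl* at -0.13 ± 0.10 (adjusted p = 0.645). The 10 members sit on 10 different chromosomes.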

How the data were processed

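The authors deposited 1 linear intensity per probe set and array, unlogged; trimming 2% of probe sets at either end left a mean of 150 on every array, as the values show. The summarising tool: not given in the sources used here. Of 45101 probe sets, 34945 had 1 gene symbol, 932 several, 9160 none, and 64 were controls, left out. Groups follow the labels.

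Values were taken as log2(intensity + 16). Array medians then differed by 0.30 (5.19 to 5.49), above a limit of 0.25, so arrays were quantile normalized. The upper 60% of probe sets (27022) were kept, with the brightest standing for its gene. A limma 3.58.1 fit (R 4.3.3, data.table version 1.17.8) used 1 mean for each group, all 21 arrays, 14 residual degrees of freedom and a variance trend. Tests were two-sided with Benjamini-Hochberg adjustment over 12499 genes. Errors on intensities are SDs and on differences SEs; the number of arrays limits precision. Figures used Python 3.11.15 and matplotlib 3.10.9. The fit was tested on simulated data.

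The members and lists were chosen with earlier results of these data known, so no pattern already seen there is independent support. Named genes were all members, the 3 of lowest p over the 3 sets in each list, the 2 genes adjacent to *Zdhhc22*, and the 5 most and 3 least like it; *Zdhhc23* values by array, *Kcnma1*, *Dcn*, *Col1a2*, *Lum* and *C1ql2* were added after their values were seen. Alternatives changed the pseudocount, filter, scaling, choice of probe set, weights, variance trend, covariates and arrays used.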

Additional observations from a re-analysis of the deposited data

How the results depend on the processing

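No paired analysis was possible because sample numbers in the titles of set 1 and experiment 2 are not shared between the groups compared. In set 3, 2 title prefixes of unstated meaning are shared by 1 array of each group. The remaining array of each group has a prefix of its own. A fit of set 3 alone took the 2 shared prefixes as levels and pooled the remaining 2 arrays as 1 level. That coding is balanced over the groups, so the members' differences could not change, and 0 members passed. Each result was recomputed under 14 other settings, 21 leave-one-out fits and 3 choices made after seeing the data, where each applied. No member was past the threshold in removed against diet, in diet against monotransgenic, or between sets under any of them. Outside the leave-one-out fits, 0.008% to 0.68% of all genes passed in removed against diet and 0% to 0.328% in diet against monotransgenic arrays. For the leave-one-out fits, and between sets under other settings, the share over all genes or probe sets was not recorded. In removed against monotransgenic arrays, 2 members passed with each set fitted alone (2.64% of all genes) and with array weights (2.03%), and 1 without the 3 monotransgenic arrays of low *Ogn* (1.06%), against 0 (0.072%). In experiment 2, 1 passed with array weights (7.12% of genes) and 1 without those 3 arrays (1.48%), against 0 (0.096%), and in set 3, 1 without them (1.48%), against 0 (0%). Over the 3 sets, 2 passed with array weights (11% of genes) and 0 with *Ogn* as a covariate (0.016%), against 1 (0.072%). With 1 array left out it was 0 to 1, and 0 without set 1 removed replicate 1 or 3, set 1 monotransgenic replicate 1 or 3, experiment 2 bitransgenic replicate 3, set 3 bitransgenic replicate 1 or 3, or set 3 monotransgenic replicate 1 or 3. Of the probe sets of the members over the 6 comparisons, 3 passed with array weights (0.963% of all tests), 0 with *Ogn* as a covariate (0.0506%), 4 without those 3 arrays (1.26%), and 0 to 2 with 1 array left out, against 1 (0.0728%). The cause was not tested. The genes counted as passing were *Zdhhc22* and *Zdhhc14*, and *Zdhhc22* was chosen from these same data, so its passes are no support. The sign of *Zdhhc22* turned in diet against monotransgenic arrays with the *Ogn* covariate (-0.57) and in no other setting. With 3 arrays a group, only large differences can pass, and dim probe sets have understated changes.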
